A study of Caenorhabditis elegans with 6 samples.

Results

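The piRNA, 22G and RNAi pathways of *Caenorhabditis elegans* were followed here through the messenger RNAs of 44 genes, taken by gene symbol from a list and found in a table of 20447 genes. They were measured by stranded poly(A)+ RNA sequencing in animals homozygous for *ebax-1(tm2321)*, a null allele of the nematode ortholog of ZSWIM8, and in wild-type N2 animals. EBAX-1 is the substrate receptor of a ubiquitin ligase that is known for destabilizing a subset of microRNAs. 4 libraries came from L1 larvae hatched without food (2 *ebax-1* from strain CZ9907 and 2 wild type), and 2 came from gravid adults fed for 68 h at 20 degrees C (1 *ebax-1* from strain FX02321 and 1 wild type). The *ebax-1* animals of the 2 stages therefore came from different strains that carry the same allele, and the adults had 1 library per genotype. With 1 allele measured, loss of EBAX-1 and other differences of these strains from wild type cannot be told apart. Stage also went with feeding and with the total RNA used per library (3 µg in L1 larvae, 10 µg in adults), and these cannot be told apart. Whole animals were sequenced, so that fewer cells of a type and less RNA per cell cannot be told apart, and gravid adults carry embryos.

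Argonaute proteins bind small RNAs and use them to find complementary transcripts. In worms, piRNAs loaded on PRG-1, double-stranded RNA loaded on RDE-1 and 26G RNAs loaded on ERGO-1 or on ALG-3 and ALG-4 mark target transcripts, on which RNA-dependent RNA polymerases then make the abundant 22G RNAs. The 22G RNAs are loaded on a further layer of Argonautes, which includes WAGO-1 in germline granules, HRDE-1 and NRDE-3 in the nucleus, and CSR-1 on expressed germline genes. Most of this machinery is known for its work in the germline, which in a newly hatched L1 larva consists of a pair of primordial germ cells and in a gravid adult fills much of the body.

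The libraries held 11401529 and 10937932 counts in *ebax-1* L1 larvae, 13425500 and 12555317 in wild-type L1 larvae, 13148409 in *ebax-1* adults and 21328335 in wild-type adults. The *ebax-1* transcript itself was at 42.9 and 48.7 CPM (read counts scaled to a common library size) in *ebax-1* L1 larvae, against 79.8 and 77.7 CPM in wild-type L1 larvae, and at 18.4 CPM in *ebax-1* adults against 45.7 CPM in wild-type adults. It fell by 0.79 on the log2 scale in L1 larvae (SE 0.0972, adjusted p = 5.07e-06, edgeR) and was lower in the libraries labelled *ebax-1* at both stages. All CPM values were scaled by the trimmed mean of M values (TMM) over the 6 libraries.

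Summed over the 44 genes, transcripts reached 4530 CPM in *ebax-1* adults and 4733 CPM in wild-type adults. The sums were 1373 and 1299 CPM in *ebax-1* L1 larvae and 1284 and 1290 CPM in wild-type L1 larvae. Stage thus separated the libraries far more than genotype did: the sum was 3.68-fold higher in wild-type adults than in wild-type L1 larvae, whereas the ratio of *ebax-1* to wild type was 1.04 in L1 larvae and 0.957 in adults. *wago-1* and *hrde-1* together took 19.7% of the sum in *ebax-1* adults and 19.4% in wild-type adults, against 4.13% and 3.39% in *ebax-1* L1 larvae and 2.31% and 2.28% in wild-type L1 larvae. In L1 larvae, 14 of the 44 genes lay under 10 CPM in both libraries of either genotype, and none did in adults.

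**Figure D1:**
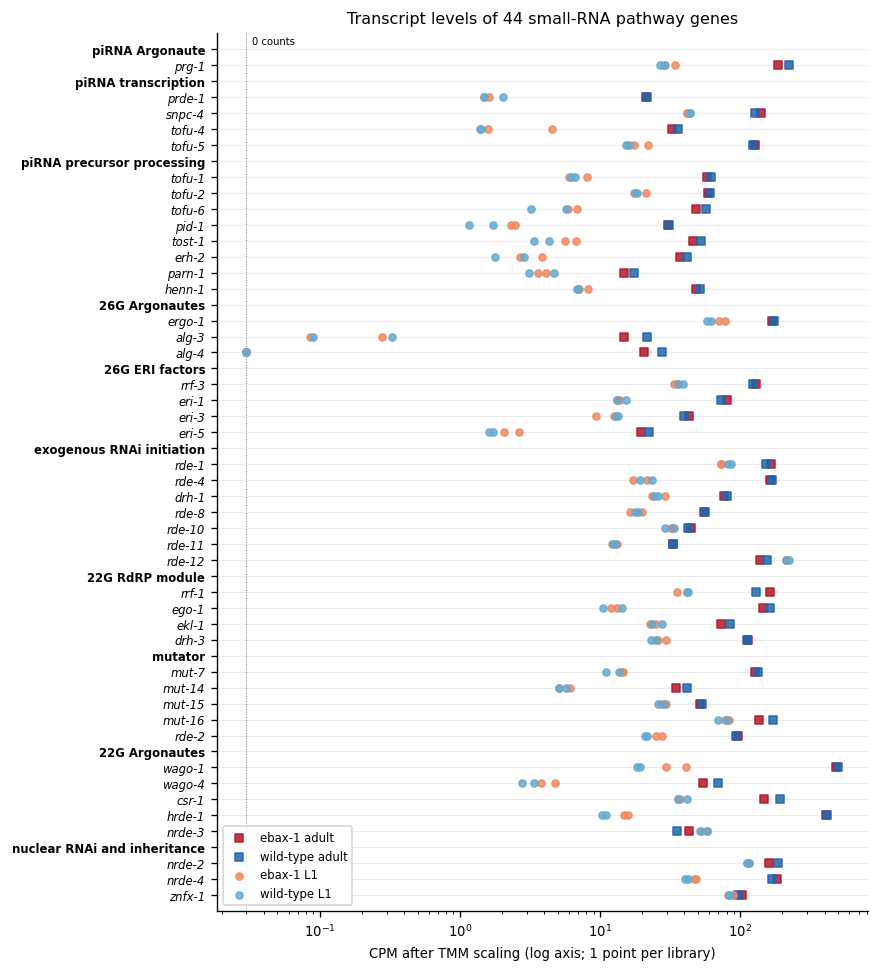
TMM-scaled CPM of each of the 44 genes on a log axis, grouped by role, with 1 point per library (squares, adults; circles, L1 larvae). Both adult points lie right of all 4 L1 points for 42 genes and left of them for 2 genes, *rde-12* and *nrde-3*; *alg-4* had 0 counts in every L1 library and is drawn on the dotted line.

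The first comparison asked which of these transcripts differed between *ebax-1* and wild-type L1 larvae. Of the 44 genes, 42 had enough counts to be tested, and 3 were called at an adjusted p under 0.05, all higher in *ebax-1*: the Argonaute genes *wago-1*, *hrde-1* and *ergo-1*. None of the 42 was called lower. Over all 13756 tested genes, 6.59% were called higher and 9.97% lower, so that the share of pathway genes called higher was near the background. The median log2 fold change was 0.06 over the 42 genes and 0.01 over all tested genes. 8 of the 42 had an unadjusted p under 0.05. Of the calls over all genes 39.8% were higher, and 76.3% were with total count scaling, which put the median of all genes at 0.17, that of the 42 genes at 0.23 and the number of pathway genes called higher at 9.

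*wago-1* (WBGene00011061, I:7235384-7238792, plus strand of WBcel235) encodes an Argonaute that binds 22G RNAs of silenced germline genes, transposons and pseudogenes. It was at 40.8 and 29.3 CPM in *ebax-1* L1 larvae, against 19.3 and 18.3 CPM in wild-type L1 larvae. The genotypes did not overlap, and the 2 *ebax-1* libraries were further apart than the 2 wild-type libraries. *wago-1* was 1.86-fold higher in *ebax-1* (log2 fold change 0.90, SE 0.144, adjusted p = 0.000135, edgeR), and it was the only one of the 42 that was both called and changed by at least 1.5-fold. It was also the only one called in every alternative analysis.

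*hrde-1* (WBGene00007624, III:4172337-4176159, minus strand) encodes the nuclear germline Argonaute that carries heritable silencing. It was at 15.9 and 14.7 CPM in *ebax-1* L1 larvae, against 10.4 and 11 CPM in wild-type L1 larvae, and was 1.43-fold higher (log2 fold change 0.51, SE 0.160, adjusted p = 0.0296, edgeR). *ergo-1* (WBGene00019971, V:1008803-1018352, plus strand) encodes an Argonaute of 26G RNAs made in oocytes and embryos. It was at 78.0 and 70.4 CPM in *ebax-1* L1 larvae, against 61.6 and 57.8 CPM in wild-type L1 larvae, and was 1.24-fold higher (log2 fold change 0.31, SE 0.0951, adjusted p = 0.0276, edgeR). Neither gene overlapped between genotypes, but both calls were lost with DESeq2 (adjusted p = 0.152 for *hrde-1* and 0.120 for *ergo-1*). Both were also lost without wild-type replicate 1 (0.189 and 0.0881 for *hrde-1* and *ergo-1*), without wild-type replicate 2 (0.0981 and 0.276) and without *ebax-1* replicate 1 (0.0940 and 0.138), again as adjusted p in edgeR.

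**Figure D2:**
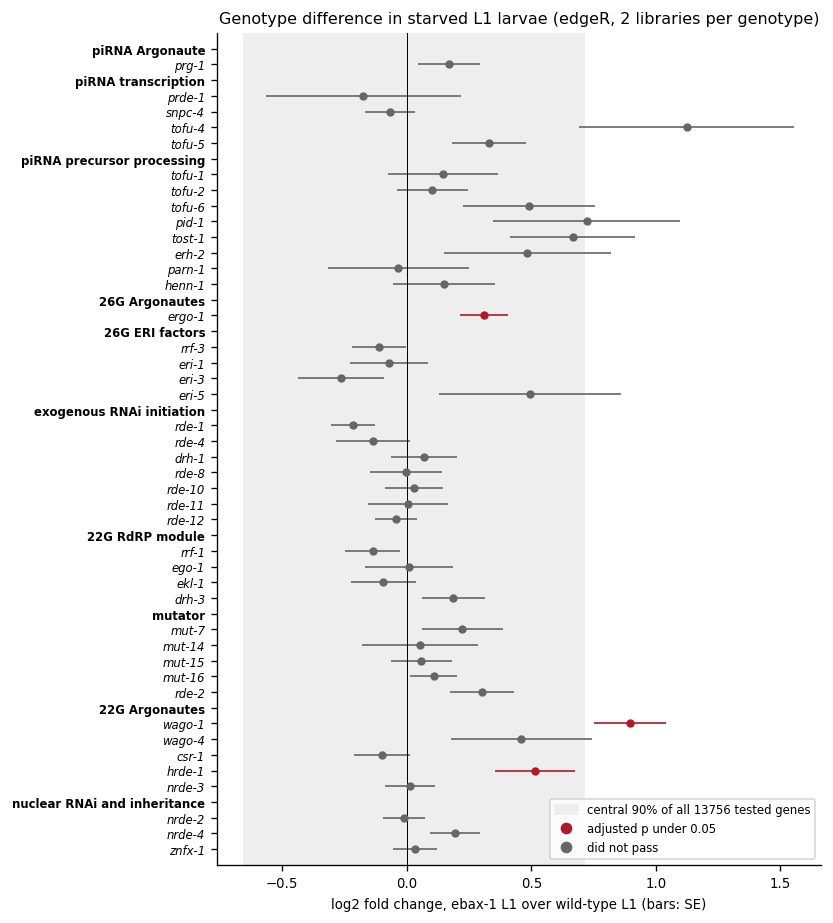
Log2 fold change of *ebax-1* over wild type in L1 larvae for the 42 tested genes (points, bars of 1 SE), with genes called by edgeR in red and the central 90% of all 13756 tested genes shaded. Of the 3 called genes, *wago-1* lies outside the shaded range, and so do *tofu-4* and *pid-1*, which were not called.

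The other Argonaute transcripts were not called in L1 larvae. *prg-1*, which encodes the piRNA-binding Argonaute, was at 34.5 and 28.7 CPM in *ebax-1* L1 larvae, against 29.3 and 26.8 CPM in wild-type L1 larvae (log2 fold change 0.17, SE 0.124, adjusted p = 0.409, edgeR), and the genotypes overlapped. *csr-1*, which encodes the Argonaute of expressed germline genes, was at 37.1 and 36.1 CPM against 36.3 and 42.0 CPM in wild type. *wago-4*, whose Argonaute acts in transgenerational inheritance, was at 3.77 and 4.75 CPM in *ebax-1* L1 larvae and at 3.37 and 2.76 CPM in wild-type L1 larvae. *nrde-3*, which encodes the nuclear Argonaute of somatic cells, was at 57.9 and 52.9 CPM against 57.9 and 51.7 CPM in wild type. *rde-1*, which encodes the Argonaute that receives exogenous double-stranded RNA, was at 72.6 and 72.9 CPM against 86.7 and 81.5 CPM in wild type, and its adjusted p of 0.112 (edgeR) was the smallest among the genes with a log2 fold change below 0.

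In the rest of the piRNA branch list, none of the 4 transcription genes and none of the 8 in the processing group was called. *tofu-4*, which acts with SNPC-4 and PRDE-1 in piRNA transcription, had the highest fold change of the 42 (log2 fold change 1.12, SE 0.431, adjusted p = 0.0820, edgeR). Its values were 4.53 and 1.58 CPM in *ebax-1* L1 larvae, against 1.40 and 1.42 CPM in wild-type L1 larvae. This difference came mostly from *ebax-1* replicate 1. Without that replicate the log2 fold change was 0.16, and without *ebax-1* replicate 2 it was 1.68 (adjusted p = 0.000931, edgeR). *tost-1*, which encodes an adaptor that binds the piRNA-processing complex PETISCO in place of PID-1, was at 6.76 and 5.59 CPM against 4.36 and 3.38 CPM in wild type (log2 fold change 0.67, SE 0.251, adjusted p = 0.0764, edgeR). *pid-1*, whose product processes piRNA precursors, was at 2.48 and 2.33 CPM against 1.73 and 1.16 CPM in wild type (log2 fold change 0.72, SE 0.377, adjusted p = 0.217, edgeR).

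No gene was called among the 4 26G ERI factors or the 7 genes of the exogenous RNAi group. None was called among the 4 genes of the 22G polymerase module, the 5 mutator genes or the 3 genes of nuclear RNAi and inheritance. The lowest log2 fold change of all was that of *eri-3*, a partner of the 26G polymerase complex, at -0.26 (SE 0.174, adjusted p = 0.347, edgeR). *rde-2*, a mutator-complex gene, was at 27.9 and 25.1 CPM in *ebax-1* L1 larvae, against 21.1 and 21.8 CPM in wild-type L1 larvae (log2 fold change 0.30, adjusted p = 0.118, edgeR). In all, *ebax-1* lay above wild type without overlap for 15 of the 42 genes and below it for 5, against 28.4% and 27.8% of all tested genes. Over all tested genes, 6.59% were called higher and 9.97% lower. Of 37 tested further small-RNA genes outside the 44, 2 were called higher and none lower. These were *mut-2*, which encodes the nucleotidyltransferase that adds UG repeats to RNAi targets (6.16 and 4.75 CPM against 2.88 and 2.31 CPM in wild type, log2 fold change 1.06, adjusted p = 0.0112, edgeR), and *vsra-1* (log2 fold change 0.34, adjusted p = 0.0433, edgeR).

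Germline and maternal transcripts moved in the same libraries. Of 15 maternal and oocyte markers, 10 were called higher in *ebax-1* L1 larvae and none lower, with *mex-5* (log2 fold change 1.24), *mex-6* (1.5), *spn-4* (1.23) and *pos-1* (1.07) having the smallest adjusted p. Their summed level was 280.0 and 221 CPM in *ebax-1* L1 larvae, against 129 and 128 CPM in wild-type L1 larvae. Of 12 P granule markers, 3 were called higher and none lower (*meg-1*, 1.81; *pgl-1*, 0.86; *deps-1*, 0.86), with sums of 273 and 258 CPM against 227 and 227 CPM in wild type. Of 12 cell cycle markers, 10 were called higher and none lower, led by *cyb-3* (1.08), *cyb-1* (0.96), *mcm-7* (0.88) and *rnr-2* (0.84), with sums of 460.3 and 372 CPM against 247 and 253 CPM in wild type. In each of these lists, as for *wago-1*, *hrde-1* and *ergo-1*, *ebax-1* replicate 1 had the higher sum of the 2. Of 9 somatic tissue markers, 1 was called lower (*unc-54*, -0.52) and none higher. Of the 10 sperm markers, 4 were at 0 counts and 8 under 1 CPM in every L1 library, and 6 of 7 markers of early embryonic transcription were under 1 CPM in every L1 library (summed level 3.42 and 3.82 CPM in *ebax-1*, against 2.06 and 2.76 CPM in wild type). The part of maternal or germline RNA in the differences of *wago-1*, *hrde-1* and *ergo-1* was not tested.

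The second comparison set gravid adults against L1 larvae in wild type. Of the 44 genes, 41 were called higher in adults, 2 lower and 1 (*znfx-1*) in neither direction, with the spread between L1 replicates standing in for that of the single adult library. Over all 16376 tested genes, 43.2% were called higher and 41.1% lower. The median log2 fold change was 2.26 over the 44 genes and 0.05 over all tested genes, and it stayed at 2.26 with *alg-4* set at its lower bound. Scaling by total counts moved the median of all genes to 0.31 and that of the 44 genes to 2.52. The 2 genes called lower, *nrde-3* and *rde-12*, then had log2 fold changes of -0.37 and -0.23, against -0.63 and -0.49 with TMM. 14 of the 44 differed by at least 10-fold, 23 by 2- to 10-fold, and 7 by less than 2-fold.

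Of the 5 22G Argonaute genes, 4 were called higher in adults and 1 lower. *hrde-1* was at 416 CPM in wild-type adults, against 10.4 and 11 CPM in wild-type L1 larvae, which was 38.9-fold higher (log2 fold change 5.28, SE 0.122, adjusted p = 5.29e-26, edgeR). *wago-1* was at 500.5 CPM in adults, 26.5-fold higher than in L1 larvae, and *wago-4* was at 69.0 CPM, 22.4-fold higher. *csr-1* was at 193 CPM, 4.94-fold higher. *nrde-3* went the other way: it was at 35.5 CPM in wild-type adults, against 57.9 and 51.7 CPM in wild-type L1 larvae, and fell by 0.63 on the log2 scale (SE 0.129, adjusted p = 5.45e-05, edgeR). Thus the whole-animal levels of the nuclear Argonaute gene of the soma and of that of the germline moved in opposite directions between the stages. The part of tissue content in this was not tested.

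The Argonautes of 26G RNAs were split by stage in another way. *alg-3* and *alg-4*, which encode closely similar Argonautes of spermatogenesis, had at most 4 counts in any L1 library and were not tested there. *alg-4* had 0 counts in all 4 L1 libraries and 27.6 CPM in wild-type adults, at least 215-fold higher when a floor of 3 counts was taken over the wild-type L1 group. *alg-3* had 1 and 3 counts in *ebax-1* L1 larvae, 4 and 1 counts in wild-type L1 larvae and 21.5 CPM in wild-type adults (fitted fold 96.8). Reads that fit both genes were not counted, so that their levels are uncertain. *ergo-1* was at 174 CPM in wild-type adults, against 61.6 and 57.8 CPM in wild-type L1 larvae, a 2.92-fold difference (adjusted p = 2.78e-14, edgeR).

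All 13 genes listed here under the piRNA branch were called higher in adults. *prg-1* was at 224 CPM in wild-type adults, against 29.3 and 26.8 CPM in wild-type L1 larvae (7.96-fold, adjusted p = 1.61e-20, edgeR). In the piRNA transcription group, the fold differences were 25.3 for *tofu-4*, 12.2 for *prde-1*, 7.80 for *tofu-5* and 2.89 for *snpc-4*, whose product also serves the transcription of small nuclear RNAs. In the processing group, they ranged between 21.3 for *pid-1* and 3.37 for *tofu-2*, with *erh-2* at 17.7, *tost-1* at 13.5 and *tofu-6* at 12.6. *parn-1*, which encodes the ribonuclease that trims piRNA 3′ ends, was at 17.6 CPM in wild-type adults (4.47-fold).

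The 7 genes of the exogenous RNAi group act in the response to exogenous double-stranded RNA. Of these, 6 were called higher in adults and 1 lower, with a median log2 fold change of 1.39. *rde-4*, which encodes a double-stranded RNA-binding partner of Dicer, was 7.94-fold higher in adults, *rde-1* was 1.81-fold higher and *rde-10* 1.35-fold higher. The call of *rde-10* was lost without wild-type L1 replicate 2 (adjusted p = 0.0848, edgeR). *rde-12*, which encodes a helicase that acts with the small-RNA machinery, was at 155 CPM in wild-type adults, against 213 and 224 CPM in wild-type L1 larvae, and fell by 0.49 on the log2 scale (SE 0.108, adjusted p = 0.000119, edgeR).

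In the 22G polymerase module, the 2 polymerase genes behaved unequally although they lie side by side. *rrf-1* and *ego-1* are on the same strand of chromosome I, 563 bp apart. *ego-1*, the germline polymerase gene, was at 164 CPM in wild-type adults, against 10.5 and 14.4 CPM in wild-type L1 larvae (13.2-fold), whereas *rrf-1* was at 130.0 CPM against 41.7 and 42.5 CPM (3.09-fold). Of the 5 mutator genes, all were called higher in adults, with fold differences between 10.9 for *mut-7*, which encodes an exonuclease, and 1.98 for *mut-15*. *mut-16*, whose product is the scaffold of mutator foci, was 2.28-fold higher. The 4 26G ERI factors were all called higher, with *eri-5* at 13.3-fold and *eri-3* at 3.03-fold. Of the 3 genes of nuclear RNAi and inheritance, *nrde-4* was 4.10-fold higher, *nrde-2* was 1.64-fold higher, and *znfx-1* was at 97.1 CPM against 83 and 83.8 CPM (log2 fold change 0.22, adjusted p = 0.0610, edgeR).

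**Figure D3:**
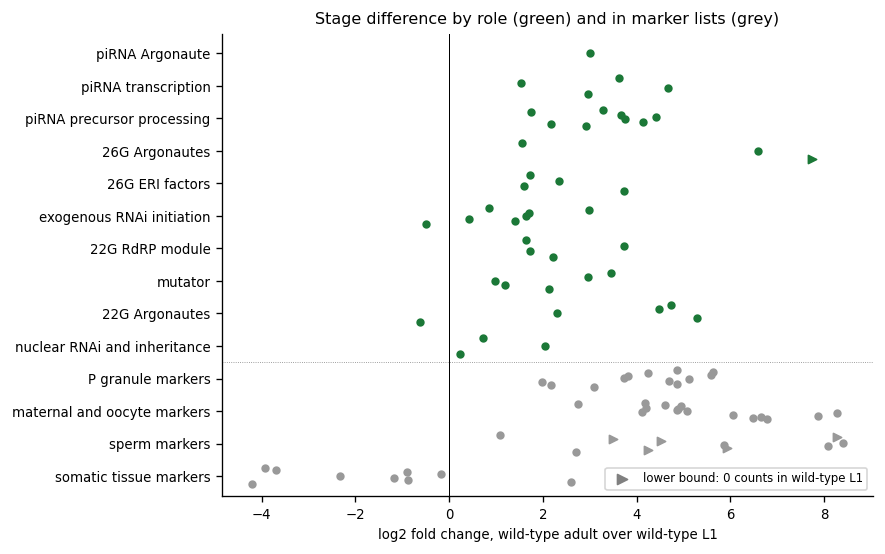
Log2 fold change of wild-type adults over wild-type L1 larvae, 1 point per gene, by role (green) and for 4 marker lists (grey); triangles are lower bounds for genes with 0 counts in wild-type L1 larvae. Only *rde-12* and *nrde-3* lie left of 0 among the 44 genes, while 8 of 9 somatic tissue markers do.

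The same libraries differed in germline, cell cycle, yolk and somatic tissue markers. All 12 P granule markers, all 15 maternal and oocyte markers and all 12 cell cycle markers were called higher in wild-type adults than in L1 larvae (median log2 fold changes 4.47, 4.95 and 3.35), as were 9 of 10 sperm markers and all 6 yolk markers, and 7 of 9 somatic tissue markers were called lower. Summed P granule markers were at 2245 CPM in wild-type adults, against 227 and 227 CPM in wild-type L1 larvae. The pathway genes thus had a lower median difference than the P granule markers. The somatic tissue markers had a median log2 fold change of -1.18, with 1 of the 9 called higher. That median lay below the values of *nrde-3* (-0.63) and *rde-12* (-0.49). The part of germline or somatic content in the rise of the pathway genes, and in the fall of *nrde-3* and *rde-12*, was not tested.

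Per length of coding sequence, which allows genes to be compared with each other, *wago-1* was the most abundant of the 44 in wild-type adults at 177 CPM per kb (95% exact Poisson interval 173 to 180). It was followed by *rde-4* (147; 143 to 152), *hrde-1* (135; 132 to 137) and *tofu-5* (132), and the intervals of *hrde-1* and *tofu-5* overlapped. The least abundant were *alg-3* (6.94; 6.34 to 7.58), *alg-4* (8.84; 8.17 to 9.56) and *parn-1* (10.3; 9.37 to 11.4), whose interval overlapped those of *alg-4* and of the next gene, *nrde-3* (11.2; 10.4 to 12). These intervals cover counting error only, in 1 adult library, so that intervals that do not overlap leave the order of genes unsettled. Reads that fit both *alg-3* and *alg-4* were not counted, so that the places of these genes are uncertain. 17 genes were over 50 CPM per kb in wild-type adults. In wild-type L1 larvae only *rde-12* was, at 75.9 ± 2.80 CPM per kb (SD, n = 2), followed by *nrde-2* (29.9 ± 0.842), *rde-1* (27.5 ± 1.20) and *mut-16* (23.8 ± 2.53). The order of the Argonautes also changed. In wild-type adults it ran *wago-1* (177), *hrde-1* (135), *prg-1* (90.4), *csr-1* (62.6), *ergo-1* (51.9), *rde-1* (49.7), *wago-4* (23.8), *nrde-3* (11.2), *alg-4* (8.84) and *alg-3* (6.94), where only the intervals of *ergo-1* and *rde-1* overlapped. In wild-type L1 larvae it was led by *rde-1*, *ergo-1* (17.8 ± 0.809) and *nrde-3* (17.3 ± 1.38), and *hrde-1* (3.46 ± 0.154) stood below *wago-1* (6.65 ± 0.248), *prg-1* (11.3 ± 0.713) and *csr-1* (12.7 ± 1.31). In L1 larvae *ergo-1* and *nrde-3*, and likewise *csr-1* and *prg-1*, did not differ beyond their spread.

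**Figure D4:**
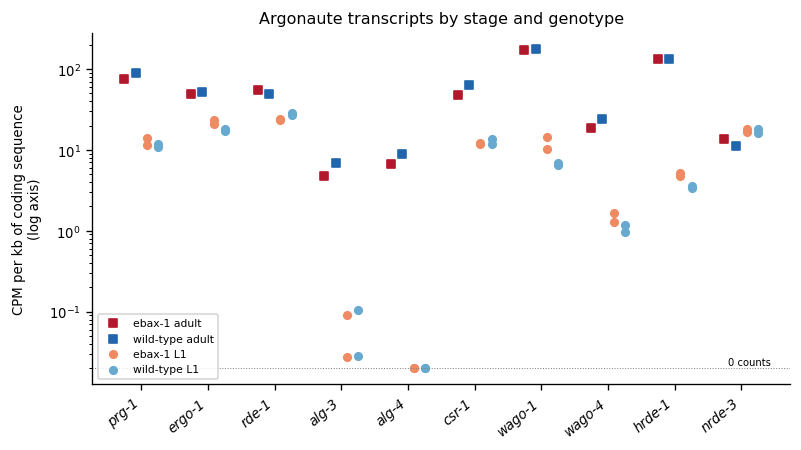
CPM per kb of coding sequence (log axis) of 10 Argonaute genes, 1 point per library, with *ebax-1* left of wild type within each stage. *wago-1* and *hrde-1* are the highest of the 10 in adults of both genotypes, and *nrde-3* is the only one that is lower in adults than in L1 larvae of the same genotype.

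In gravid adults, 1 *ebax-1* library was set against 1 wild-type library, so that the difference has no replicate check and no test was made. None of the 44 genes differed by 1.5-fold or more. Over 13563 genes with at least 50 counts, 7.65% were at least 1.5-fold higher in *ebax-1* and 9.14% at least 1.5-fold lower. The median log2 ratio was -0.06 for both the 44 genes and all measured genes. *wago-1*, called higher in L1 larvae, was at 482 CPM in *ebax-1* adults and 500.5 CPM in wild-type adults (ratio 0.963, 95% exact binomial interval 0.935 to 0.992), and *hrde-1* was at 410.4 and 416 CPM (0.986; 0.955 to 1.02). *ergo-1* was at 167 CPM in *ebax-1* adults and 174 CPM in wild-type adults (0.960; 0.913 to 1.01). These intervals cover counting error only, and with total count scaling the ratios of *wago-1* and *hrde-1* were 1.02 and 1.04. Of all genes that differed by at least 1.5-fold, 45.6% were higher in *ebax-1*, and 57% were with total count scaling.

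The 4 lowest ratios belonged to Argonaute genes. *alg-3* was at 14.9 CPM in *ebax-1* adults and 21.5 CPM in wild-type adults (ratio 0.693, interval 0.589 to 0.813), and *alg-4* at 20.7 and 27.6 CPM (0.752; 0.654 to 0.862). *csr-1* followed at 147 CPM in *ebax-1* adults and 193 CPM in wild-type adults (0.760; 0.722 to 0.80), then *wago-4* at 54.1 and 69.0 CPM (0.784; 0.719 to 0.854) and *mut-16* at 136 and 171 CPM (0.795; 0.753 to 0.839). *prg-1* was at 187 CPM in *ebax-1* adults and 224 CPM in wild-type adults (0.838; 0.80 to 0.878). The highest ratios were those of *rrf-1*, at 163 and 130.0 CPM (1.25; 1.19 to 1.32), and *nrde-3*, at 42.8 and 35.5 CPM (1.21; 1.09 to 1.34). Over the 44 genes, 17 intervals lay below 1, 7 above it and 20 spanned it. With total count scaling, 12 lay below 1 and 13 above it. Sperm markers, whose tissue expresses *alg-3* and *alg-4*, were lower in the *ebax-1* adult library for all 9 that were measured (median log2 ratio -0.21), with sums of 100.1 CPM in *ebax-1* adults and 120 CPM in wild-type adults. The median of all measured genes was -0.06, and 0.02 with total count scaling. The intervals of *gsp-4*, *ssp-10*, *ssp-16* and *ssp-19* lay below 1, and those of *spe-9*, *spe-11*, *spe-42*, *gsp-3* and *fer-1* spanned it. Of 12 P granule markers, 9 had a log2 ratio below 0 in adults (median -0.23, *glh-1* at a ratio of 0.764 and *cgh-1* at 0.755), with sums of 1876 CPM in *ebax-1* adults and 2245 CPM in wild-type adults. The maternal and oocyte markers and the cell cycle markers lay nearer the median of all measured genes. Of 15 maternal and oocyte markers, 10 were below 0 and 5 above it (median log2 ratio -0.07). Of 12 cell cycle markers, 10 were below 0 and 2 above it (median -0.09). The part of sperm and germline content in the ratios of *alg-3*, *alg-4*, *csr-1*, *wago-4*, *mut-16* and *prg-1* was not tested.

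**Figure D5:**
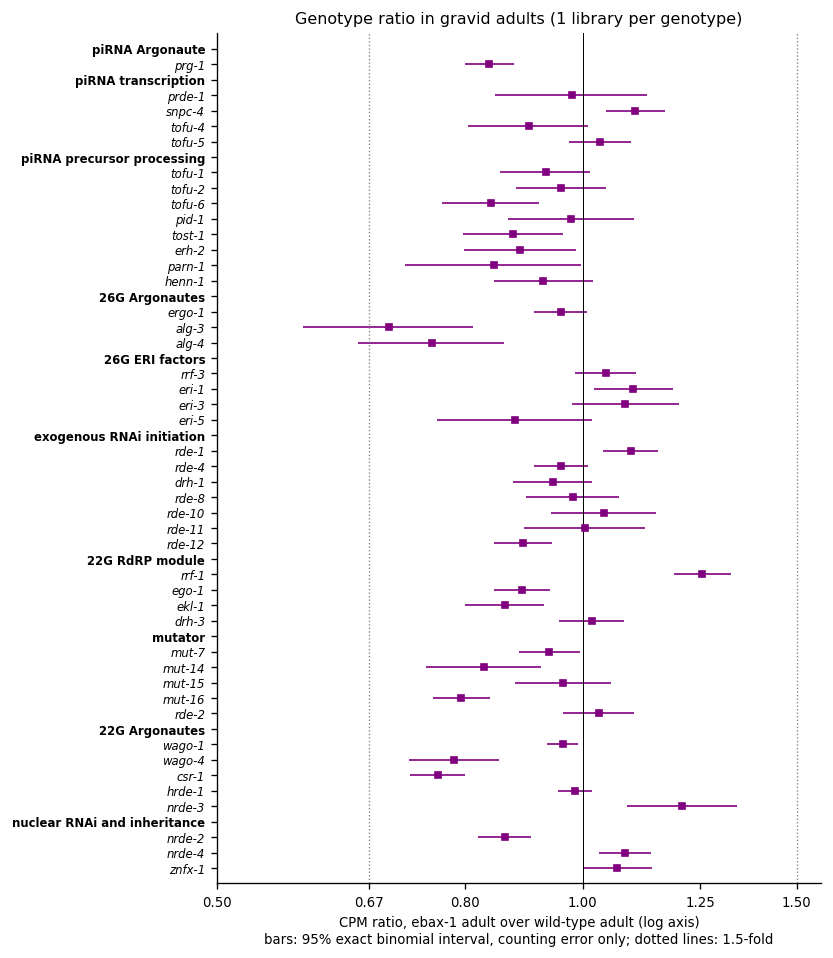
CPM ratio of *ebax-1* to wild-type adults for each of the 44 genes (squares, log axis) with 95% exact binomial intervals that cover counting error only, and dotted lines at 1.5-fold either way. No ratio lies beyond the dotted lines, and *alg-3* and *rrf-1* are the lowest and the highest.

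Whether the *ebax-1* difference itself changed with stage was tested as the interaction of genotype and stage over the 6 libraries, in which a negative value means a lower ratio of *ebax-1* to wild type in adults than in L1 larvae. 2 of the 44 genes were called, both negative, and none was called positive, against 4.66% of all 16376 tested genes called negative and 4.49% positive. Of all calls 49.1% were positive, and 38.1% were with total count scaling. *wago-1* had an interaction of -0.95 on the log2 scale (SE 0.190, adjusted p = 0.000904, edgeR) and *tost-1* of -0.86 (SE 0.279, adjusted p = 0.0482, edgeR). *hrde-1* did not pass (-0.54, SE 0.181, adjusted p = 0.0567, edgeR), nor did *tofu-4* (-1.28, SE 0.436, adjusted p = 0.0620, edgeR) or *rrf-1* (0.46, SE 0.166, adjusted p = 0.0841, edgeR). The call of *tost-1* was lost with DESeq2 (adjusted p = 0.442), without wild-type L1 replicate 2 (0.230) and without *ebax-1* L1 replicate 1 (0.134). The number of genes called negative was 2 with all libraries and 8 without *ebax-1* L1 replicate 2. The same test called 10 of 15 maternal and oocyte markers, 10 of 12 cell cycle markers and 6 of 12 P granule markers negative and none of them positive. Because the *ebax-1* animals of each stage were of another strain, stage and strain cannot be told apart in these values.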

How the data were processed

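Poly(A)+ RNA was sequenced as stranded 50-nt single-end reads. The authors aligned reads to the *C. elegans* genome (WS245) with STAR 2.7.1a, kept unique alignments and counted them per gene over coding sequence with featureCounts, and the deposited values are these raw counts. The study describes the L1 replicates as independent. Symbols, positions and coding lengths came from an Ensembl annotation of WBcel235, which placed 20159 of 20447 genes. The other genes held 0.180% to 0.214% of each library's counts and were kept. Genes passing filterByExpr (minimum count 10) were tested with the quasi-likelihood test of edgeR 4.0.16 in R 4.3.3 after TMM scaling, with Benjamini-Hochberg adjustment over all tested genes and a threshold of 0.05. L1 genotypes were fitted on the 4 L1 libraries, and stage and interaction on 6 libraries with 1 mean per group. Adult ratios carry 95% exact binomial intervals. DESeq2 1.42.0, other scalings, no filter, a replicate block and leaving out each L1 replicate were the alternatives. Code was tested on simulated data. The 2 replicates of each L1 group differed by more than sampling noise (chi-square per degree of freedom 3.79 in wild type and 6.05 in *ebax-1*). Values are given for every gene called in L1 larvae, for adult ratios of at least 1.5-fold, for the 3 highest and 3 lowest levels per kb, for genes under 1 CPM in L1 larvae, for 10 Argonautes, and for up to 4 called genes of each marker list. Others named are extremes or were chosen after their values were seen. The 44 genes and all lists were chosen with earlier results of these data known.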

Additional observations from a re-analysis of the deposited data

Results flagged for a closer look

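The interaction of genotype and stage passed the test for *wago-1* (-0.9538 on the log2 scale, adjusted p = 0.000904, edgeR). *wago-1* was at 40.8 and 29.3 CPM in *ebax-1* L1 larvae, against 19.3 and 18.3 CPM in wild-type L1 larvae, and at 482 CPM in *ebax-1* adults, against 500.5 CPM in wild-type adults. The interaction also passed for *tost-1* (-0.8597, adjusted p = 0.0482, edgeR), which was at 6.76 and 5.59 CPM in *ebax-1* L1 larvae, against 4.36 and 3.38 CPM in wild-type L1 larvae, and at 46.0 CPM in *ebax-1* adults, against 52.4 CPM in wild-type adults. Both rest on 1 adult library per genotype.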

How the results depend on the processing

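In L1 larvae, 3 of the 44 genes were called higher. With total count scaling 9 were, with no low-count filter 5, with DESeq2 1, with the 6-library fit 5 and with at least 1.5-fold change 1. Leaving out 1 L1 replicate gave between 1 and 6 genes called higher and 0 called lower. Over all genes, calls higher and lower numbered 907 and 1371, against 2341 and 728 with total count scaling, 429 and 896 with DESeq2 and 482 and 562 at 1.5-fold or more, and leaving out 1 replicate gave 521 to 992 higher and 838 to 1404 lower. With a replicate block the same 3 genes were called, and the block changed no other call among the 44. Deviations of same-numbered L1 libraries were not correlated over genes (correlation -0.003). This value cannot show whether same-numbered samples were raised or prepared together.

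Between stages, leaving out 1 L1 replicate gave 40 to 42 genes called higher and 2 lower. *znfx-1* was called in every alternative that kept all 6 libraries, which were the scaling of DESeq2, total count scaling, no filter and DESeq2. Its log2 fold change lay between 0.20 and 0.22 when 1 L1 replicate was left out. It was called when that was an *ebax-1* replicate and not when it was a wild-type replicate. In the interaction, 2 genes were called negative, against 4 with the scaling of DESeq2, 4 with total count scaling, 4 with no filter and 1 with DESeq2, and leaving out 1 replicate gave 1 to 8 negative and 0 to 1 positive. Over all genes DESeq2 called 242 positive and 207 negative in the interaction, against 736 and 763 in edgeR. In adults, 394 of all genes were at least 2-fold higher and 392 lower in *ebax-1*. The causes of these shifts were not tested. With 2 L1 replicates and single adult libraries, genes under 10 CPM were measured least firmly.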
